A study of Mus musculus with 22 samples.

Results

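RNA sequencing compared whole brains of newborn PWS-cr pups with those of their wild-type littermates, and the account here covers every pup of that litter set with a column in its raw count table. Membership followed the genotype label of each pup, which gave 6 PWS-cr and 5 wild-type libraries, 11 of the 20 libraries of the series that have a column (22 are labelled). The PWS-cr pups were heterozygous (labelled HET PWS-Cr) and carried the deletion on the paternal chromosome, with an intact maternal chromosome. All pups were at postnatal day 0, and 3 of the 6 PWS-cr and 2 of the 5 wild-type pups were female. A second set, PWS-IC, was sequenced alongside and is not part of the comparison. The strain of the sequenced pups and the exact ends of the deletion are not given in the sources used here.

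The pups came from 4 litters, and genotype was compared within litters. Litter 1 held 3 PWS-cr pups and 1 wild-type pup, and litters 3 and 4 each held 1 PWS-cr pup and 2 wild-type pups. The only library of litter 2 with a count column, 2_2_Cr, is a PWS-cr pup whose labelled wild-type littermate has no such column. The library 2_2_Cr therefore adds nothing to the genotype term of a model that holds litter, and the log2 fold changes rest on 5 PWS-cr and 5 wild-type pups. The paper reports that clustering of the PWS-cr samples showed an outlier, which its authors removed. Which library that was is not stated.

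Total counts were between 45798407 and 54882018 per PWS-cr library and between 47115606 and 55563780 per wild-type library. Counts of *Xist* and *Eif2s3y* matched the labelled sex in 11 of 11 libraries. The neuronal markers *Tubb3*, *Map2* and *Snap25* were measured in every library. Over all 22172 genes tested, the nearest library had the same genotype for 4 of 11 libraries and the same sex for 9. The first principal component of the 500 most variable genes held 34.8% of their variance. Caudal *Hox* genes, markers of spinal cord and caudal hindbrain, differed widely between libraries, with summed levels of 82.3 to 105 CPM in 1_5_Cr, 3_5_Cr and 4_3_Cr, all PWS-cr, and 0.965 to 7.27 CPM in the other PWS-cr libraries. The wild-type libraries had 1.66 to 36.6 CPM. Some fits below leave out 1_5_Cr, 3_5_Cr and 4_3_Cr together with the litter term. Such fits hold no PWS-cr pup of litters 3 and 4, so genotype and litter can hardly be told apart in them. CPM are counts relative to library size (the usual CPM scale) with a correction for library composition. In whole brain tissue fewer cells of a type and less RNA per cell cannot be told apart.

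The Prader-Willi interval is an imprinted stretch of chromosome in which one set of genes is read only from the copy inherited from the father. A long non-coding RNA, *Snhg14*, starts near the imprinting centre and runs through clusters of C/D box small nucleolar RNAs, among them *Snord116*, which are cut from its introns. In neurons the transcript continues antisense to *Ube3a*, a ubiquitin ligase gene that neurons read from the maternal copy. The critical interval that PWS-cr mice lack holds the *Snord116* genes and most exons of *Ipw*, a non-coding transcript of the same stretch.

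The reference annotation (GENCODE M21, mm10) lists 18 copies of *Snord116*, between 59675988 and 59904848 of chromosome 7 on the minus strand, and 18 of the 18 have a row in the count table. Each is 94 bases long, and 14 of them have the same sequence. The shared sequence and the pair of copies that received a count are printed below 5′ to 3′, to show how alike the deleted genes are. Capitals mark the letters TGATGA near the start and the last CTGA near the end, which are the C box and D box that give this class of RNA its name and that were found in 18 of the 18 copies.
Snord116l1, shared with 13 further copies: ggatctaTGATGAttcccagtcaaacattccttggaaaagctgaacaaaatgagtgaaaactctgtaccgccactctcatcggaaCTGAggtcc
Snord116l9: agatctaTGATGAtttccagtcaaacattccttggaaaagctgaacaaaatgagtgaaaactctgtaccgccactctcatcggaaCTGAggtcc
Gm26504, also listed as Snord116: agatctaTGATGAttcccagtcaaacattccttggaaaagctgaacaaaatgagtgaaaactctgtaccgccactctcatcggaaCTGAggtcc
Counted from 1 at the 5′ end, *Snord116l9* differs from the shared sequence by G1A and C16T, and *Gm26504* by G1A. Wild-type libraries held 2 counts over all 18 copies, 1 on *Snord116l9* in 1_3_Cr and 1 on *Gm26504* in 4_1_Cr, and the PWS-cr libraries held 0. The libraries were made from polyadenylated RNA, and at 2 counts in 5 wild-type libraries the loss of these small RNAs was not detectable at this depth. *Ipw* has no row under its name.

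*Gm44831*, an unclassified transcript that lies inside the RefSeq bounds of *Ipw*, fell in PWS-cr brains. It had 0 counts in 5 PWS-cr libraries and 1 count in 2_2_Cr. The wild-type libraries had 239 counts in 1_3_Cr, 247 in 3_1_Cr, 296 in 3_6_Cr, 254 in 4_1_Cr and 229 in 4_2_Cr. Every wild-type library stood far above every PWS-cr library, which matched the genotype labels in 11 of 11 libraries (adjusted p = 0.000151, edgeR). Pooled over libraries, the wild-type rate was 1477 times that of PWS-cr, with an exact 95% interval of 265 to 58375 that covers counting error only.

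*Snhg14*, the host transcript, fell in PWS-cr brains but stayed measurable in each of them. PWS-cr libraries had 41.8 CPM at the lowest, 46.7 at the median and 48.8 at the highest. Wild-type libraries had 131 CPM in 1_3_Cr, 153 in 3_1_Cr, 151 in 3_6_Cr, 143 in 4_1_Cr and 158 in 4_2_Cr. The groups did not overlap, and the PWS-cr mean was 31.4% of the wild-type mean. The fold change was 0.315 (95% interval 0.285 to 0.348) and the adjusted p was 2.36e-06 in edgeR. The same direction was seen in each litter with both genotypes, with log2 differences of −1.48 in litter 1, −1.86 in litter 3 and −1.69 in litter 4. Of the 26093 exonic bases annotated to *Snhg14*, 9357 (35.9%) lie between the RefSeq end of *Ipw* and the first *Snord116* copy that is transcribed, 59619158 to 59904848. A further 8875 bases (34%) lie past *Ipw* towards *Ube3a*, and the counts do not say which exons the remaining reads came from.

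Past the critical interval the direction turned. *A230103L15Rik*, an unclassified transcript on the strand of *Snhg14* at 59327318 to 59331189 with no exonic base shared with another gene, rose in PWS-cr brains. PWS-cr libraries had 71.8 CPM at the lowest, 85.4 at the median and 91.5 at the highest. Wild-type libraries had 52.5 CPM in 1_3_Cr, 56.2 in 3_1_Cr, 51.0 in 3_6_Cr, 56.0 in 4_1_Cr and 61.2 in 4_2_Cr. Again the groups did not overlap, and the fold change was 1.56 (95% interval 1.41 to 1.73, adjusted p = 0.013, edgeR). The call was lost without 1_3_Cr (log2 fold change 0.58, adjusted p = 0.204, edgeR), without 3_5_Cr (0.60, adjusted p = 0.298) and without 3_6_Cr (0.62, adjusted p = 0.0656). It was also lost without 1_5_Cr, 3_5_Cr and 4_3_Cr and the litter term (0.56, adjusted p = 0.0974), without litter 1 (0.59, adjusted p = 0.579) and without litter 3 (0.60, adjusted p = 0.814), and the log2 fold change stayed positive in each of these fits.

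**Figure D1:**
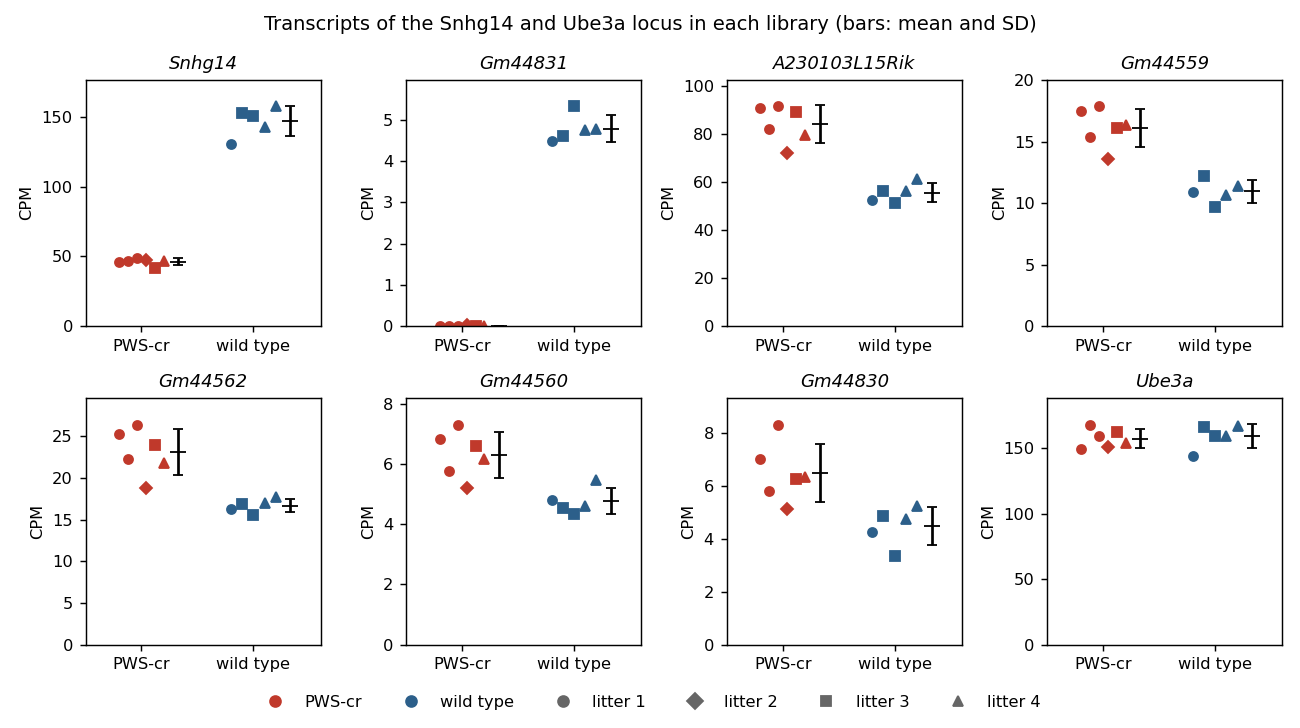
CPM of 8 transcripts of the *Snhg14* and *Ube3a* locus in each of the 11 libraries, with PWS-cr in red, wild type in blue, a marker shape per litter, and bars for the mean and SD of each genotype. *Snhg14* and *Gm44831* lie lower in PWS-cr, the next 3 transcripts lie higher without overlap, *Gm44560* and *Gm44830* lie higher with overlap, and *Ube3a* has the same range in both.

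Further along, within the introns of *Ube3a*, *Gm44559* and *Gm44562* were also higher in every PWS-cr library than in any wild-type library, but missed the genome-wide threshold. *Gm44559* had 13.6 to 17.9 CPM (median 16.3) in PWS-cr, against 10.9 in 1_3_Cr, 12.2 in 3_1_Cr, 9.66 in 3_6_Cr, 10.7 in 4_1_Cr and 11.4 in 4_2_Cr. *Gm44562* had 18.8 to 26.4 CPM (median 23.1), against 16.3, 16.9, 15.5, 17.0 and 17.7 in the same wild-type libraries. Their fold changes were 1.51 (95% interval 1.33 to 1.71, adjusted p = 0.097) and 1.42 (1.27 to 1.58, adjusted p = 0.115) in edgeR. DESeq2 on the same genes called both, with adjusted p = 7.9e-07 and 2.93e-06, as did edgeR without the filter on low counts (0.00071 for *Gm44559* and 0.00145 for *Gm44562*).

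The same stretch holds further small transcripts that no list named, so that all tested genes from *Atp10a* to *Peg12* (36 in number) were walked through in order. Of 9 tested genes between the far end of *Gm44562* and the *Ipw* gene, *Snhg14* and *Ube3a* aside, 8 had a positive log2 fold change and 7 an unadjusted p under 0.05, the negative one among them. Their median log2 fold change was 0.50, against 0.00 over all 22172 genes tested, of which 2.07% had such a p. *Gm44560* had a log2 fold change of 0.44 (95% interval 0.22 to 0.67) and *Gm44830* one of 0.56 (0.24 to 0.88), and neither reached the genome-wide threshold (adjusted p = 1 for both, edgeR). *Gm44830* and *Gm44829* (0.21, −0.01 to 0.43) are annotated on the opposite strand. The libraries were unstranded, so reads of transcripts on opposite strands cannot be told apart there, and 2025 exonic bases of *Gm44560* are shared with *Ube3a*. These 9 genes were grouped by position after their values were seen.

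Rows of small nucleolar RNA genes in the stretch did not move as one. The libraries were made from polyadenylated RNA, so these counts are not a measure of the small RNAs themselves. *Gm24983* had a log2 fold change of 0.96 (95% interval 0.29 to 1.62) at 0.303 CPM in PWS-cr and 0.167 CPM in wild type. *Gm26498* had one of 0.48 (−0.09 to 1.05) at 0.415 CPM in PWS-cr and 0.291 CPM in wild type. *Gm24966* was the exception among the 9, at −0.33 (−0.59 to −0.06), with 1.70 CPM in PWS-cr and 1.92 CPM in wild type. Over the transcripts within the *Ube3a* gene and *A230103L15Rik*, 2_2_Cr, the pup without a counted littermate, had the lowest value of the 6 PWS-cr libraries for *A230103L15Rik*, *Gm44559*, *Gm44562*, *Gm44560* and *Gm44830*. Without the litter term, which lets this library count, the log2 fold change of *A230103L15Rik* was 0.60 and that of *Gm44559* was 0.56, called at adjusted p = 0.0307.

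**Figure D2:**
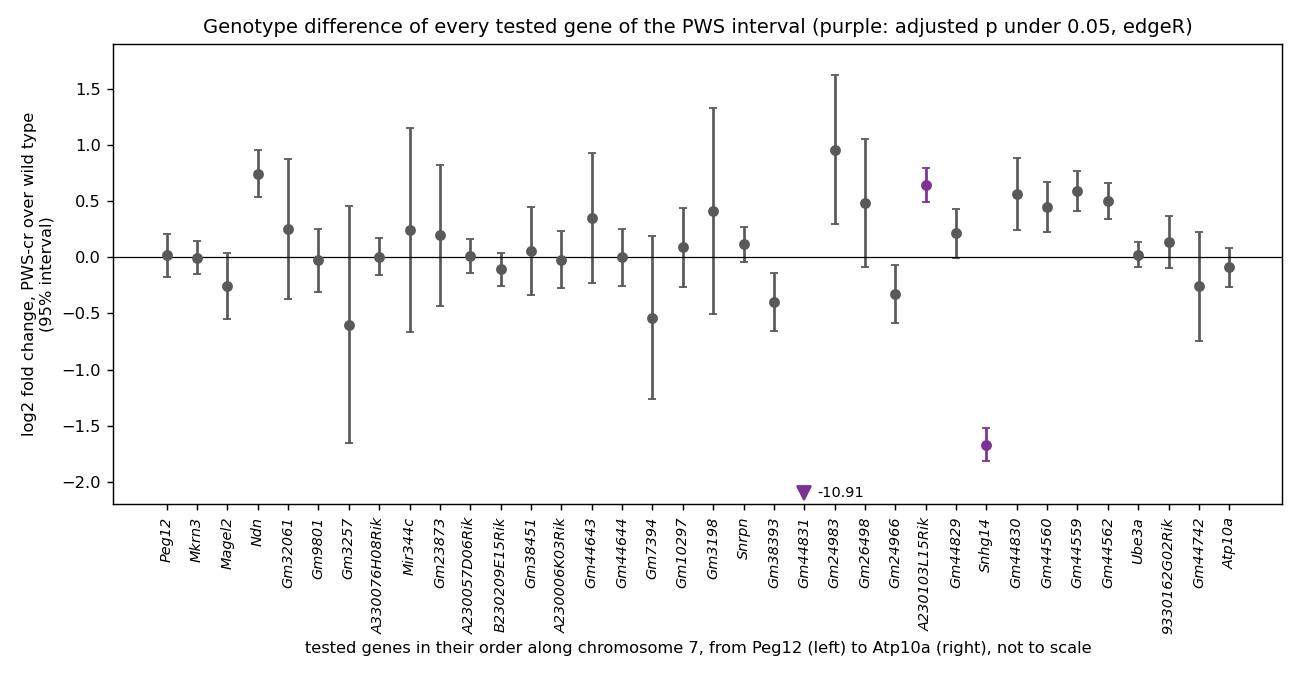
Log2 fold change of PWS-cr over wild type with its 95% interval for the 36 tested genes from *Peg12* (left) to *Atp10a* (right), each placed by its lower coordinate and evenly spaced; purple marks genes called by edgeR. Between *Gm44831* (off the scale at a fitted −10.91, which rests on 1 PWS-cr count) and *Ube3a*, 8 of 9 transcripts other than *Snhg14* lie above 0, while to the left the intervals of *Ndn* (above 0) and *Gm38393* (below 0) exclude 0.

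*Ube3a* itself, which the antisense end of *Snhg14* overlaps, did not pass the test and had a narrow interval. Of its 20626 exonic bases, 5624 are shared with other genes, 1803 of them with *Snhg14*. In unstranded libraries reads there cannot be assigned to a strand, which the interval does not cover. PWS-cr libraries had 149 to 168 CPM (median 157), and the wild-type libraries had 144 CPM in 1_3_Cr, 166 in 3_1_Cr, 159 in 3_6_Cr, 159 in 4_1_Cr and 167 in 4_2_Cr. The fold change was 1.02 with a 95% interval of 0.94 to 1.1. *Atp10a*, a phospholipid flippase gene beyond *Ube3a*, had a log2 fold change of −0.09 (−0.26 to 0.08). *9330162G02Rik*, which shares 1796 exonic bases with *Ube3a* on the other strand, had one of 0.14 (−0.09 to 0.37). The sign of the *Ube3a* value changed with the setting.

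At the other side of the critical interval lie the start of *Snhg14* and the protein-coding genes of the paternal set. *Snrpn*, which encodes a spliceosomal protein of neurons, had 260 to 315 CPM (median 274) in PWS-cr. In wild type it had 245, 243, 279, 267 and 294 CPM in 1_3_Cr, 3_1_Cr, 3_6_Cr, 4_1_Cr and 4_2_Cr, and the fold change was 1.08 (0.974 to 1.21). The groups overlapped, and the log2 difference was 0.20, 0.07 and 0.06 in litters 1, 3 and 4. *Gm38393*, which spans the *Snhg14* start and shares 27 of its exonic bases, had a log2 fold change of −0.40 (−0.66 to −0.14, adjusted p = 1, edgeR), at 13.8 CPM in PWS-cr and 18.9 CPM in wild type.

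*Ndn*, which encodes necdin, a growth suppressor of postmitotic neurons in the MAGE family, stood apart from its neighbours. PWS-cr libraries had 393 CPM at the lowest, 449 at the median and 482 at the highest. Wild-type libraries had 211 CPM in 1_3_Cr, 259 in 3_1_Cr, 261 in 3_6_Cr, 314 in 4_1_Cr and 359 in 4_2_Cr. The groups did not overlap, although the wild-type values differed between litters, lowest in litter 1 and highest in litter 4. The fold change was 1.68 (95% interval 1.45 to 1.94) and missed the threshold in edgeR (adjusted p = 0.0621), while DESeq2 on the same genes called it (adjusted p = 2.13e-12). Within litters the log2 difference was 1.09 in litter 1, 0.60 in litter 3 and 0.52 in litter 4. Litter 1 rests on the single wild-type library 1_3_Cr, and without litter 1 the log2 fold change was 0.56 (adjusted p = 0.343, edgeR). Without 4_2_Cr, the highest wild-type library, edgeR called *Ndn* (0.79, adjusted p = 0.036), and it did so without the filter on low counts (0.75, adjusted p = 7.21e-08).

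The genes beside *Ndn* had values around 0 or below. *Magel2*, another MAGE gene of the paternal set that acts in hypothalamic protein sorting, had 34.8 to 50.6 CPM (median 43.3) in PWS-cr and 44.7, 43.5, 61.1, 50.8 and 67.1 CPM in the wild-type libraries in the order above. Its log2 fold change was −0.26 (−0.55 to 0.03), with −0.01 in litter 1, −0.59 in litter 3 and −0.22 in litter 4. *Mkrn3*, an E3 ligase gene that restrains puberty, had a log2 fold change of −0.00 (−0.15 to 0.14). *Peg12*, an intronless imprinted gene, had one of 0.02 (−0.17 to 0.21).

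The best-expressed non-coding transcripts between *Snrpn* and *Ndn* had narrow intervals and did not pass the test. *A230057D06Rik* had a log2 fold change of 0.01 (−0.14 to 0.17), *A330076H08Rik* one of 0.01 (−0.16 to 0.17) and *B230209E15Rik* one of −0.11 (−0.25 to 0.04). Others at low levels were measured loosely, such as *Gm44643* (0.35, −0.23 to 0.93) and *Mir344c* (0.24, −0.66 to 1.15). Of the 20 tested genes that lie wholly between the *Snhg14* start and *Peg12*, which leaves out *Gm38393*, 12 had a positive value, with a median log2 fold change of 0.02, and 1 had an unadjusted p under 0.05, which was *Ndn*. *Ndn* was likewise the only one of the 20 that DESeq2 called. Over all genes tested, 2.07% had such a p in edgeR and DESeq2 called 0.0316%.

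On the whole chromosome the differences lay near the deletion. Within 1 Mb of *Gm44831*, 10 of 17 tested genes (58.8%) had an unadjusted p under 0.05 and the median absolute log2 fold change was 0.444. From 1 to 5 Mb it was 1 of 58 genes (1.72%) with a median of 0.0675, from 5 to 20 Mb 5 of 309 (1.62%), and beyond 20 Mb 20 of 1363 (1.47%). Over the autosomes and the X chromosome the share ran from 1.09% on chromosome 2 to 2.88% on chromosome 14. The bins near *Gm44831* hold genes that share transcripts, so that they are not separate measurements. Of 19 genes that flank the interval further out, such as the GABA-A receptor gene *Gabra5* (log2 fold change 0.09), none was called by edgeR or DESeq2, 0 had an unadjusted p under 0.05, and the values lay between −0.11 and 0.10. Over all genes tested, edgeR called 0.0135%, DESeq2 called 0.0316% and 2.07% had such a p in edgeR. At this list size 0 is close to those shares.

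Across the genome, edgeR called 3 of 22172 genes tested (0.0135%), 1 higher (0.00451%) and 2 lower (0.00902%), which were the 3 named above. DESeq2 called 7 of the 22156 genes for which it gave an adjusted p (0.0316%), and 6 of those lie on chromosome 7. The CPM ranges of the genotypes did not overlap, with PWS-cr higher, for 18 genes (0.0812%) and, with PWS-cr lower, for 20 genes (0.0902%). Of these, 6 are the locus transcripts and *Ndn* described above. All 182 genes with higher and 277 genes with lower values at an unadjusted p under 0.05 make up 2.07% of those tested.

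Intervals of the log2 fold change were narrowest for well-expressed genes. They are per gene and not adjusted over the genes tested. A narrow interval therefore does not mean that a small difference would be called. *Ndn* missed the threshold in edgeR at 0.75 (SE 0.09). The 95% interval of the log2 fold change lay within ±0.5 for 14788 genes (66.7%) and within ±1 for 20064 (90.5%). For genes at 10 to 100 CPM the median standard error was 0.0589 and 97.2% of intervals lay within ±0.5. For genes under 1 CPM the median standard error was 0.279 and the share was 7.12%. These p-values measure the spread between pups of 3 litters.

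*Mafa*, a transcription factor gene known for its part in insulin expression of beta cells, was the only gene outside chromosome 7 that DESeq2 called on the same genes (adjusted p = 2.93e-06). EdgeR did not call it on these genes (adjusted p = 0.383) and did without the filter on low counts (adjusted p = 2.7e-05). PWS-cr libraries had 5.33 CPM in 1_1_Cr, 4.64 in 1_2_Cr, 7.13 in 1_5_Cr, 4.79 in 2_2_Cr, 9.38 in 3_5_Cr and 7.28 in 4_3_Cr. Wild-type libraries had 2.37 CPM in 1_3_Cr, 1.9 in 3_1_Cr, 4.18 in 3_6_Cr, 2.52 in 4_1_Cr and 3.79 in 4_2_Cr. The groups did not overlap, but the 3 highest PWS-cr libraries were those with the most caudal *Hox* RNA, and the 3 others lay just above the highest wild-type library.

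The log2 fold change of *Mafa* was 1.37 (SE 0.23). It was 1.14 with the caudal *Hox* level as a term and 0.74 without 1_5_Cr, 3_5_Cr and 4_3_Cr and without the litter term, and edgeR called it in neither (adjusted p = 0.22 and 1). The fit without these libraries holds no PWS-cr pup of litters 3 and 4, so genotype and litter can hardly be told apart in it. Within litters the difference in *Mafa* was 1.23, 1.59 and 1.18 in litters 1, 3 and 4. The 3 libraries with the most caudal *Hox* RNA were PWS-cr and the other 3 PWS-cr libraries lay below 3 of the 5 wild-type libraries, and the part of such tissue in the *Mafa* result was not tested beyond these fits. The genes that work beside *Mafa* in beta cells did not follow it as a set. Of 23 listed Maf factors and beta-cell genes, 16 were tested, *Mafa* among them. Of these 16, 6 had a positive value, *Mafa* included, and the median log2 fold change was −0.07 (0.05 without 1_3_Cr). EdgeR called 0 of them, against 0.0135% of all genes tested, and *Mafa* was the 1 member that DESeq2 called, against 0.0316% of all genes. *Isl1*, a homeobox gene of beta cells and of several neuron types, had a value of −0.44 (SE 0.17), and *Maf*, a relative of *Mafa*, had 0.20 (SE 0.09).

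**Figure D3:**
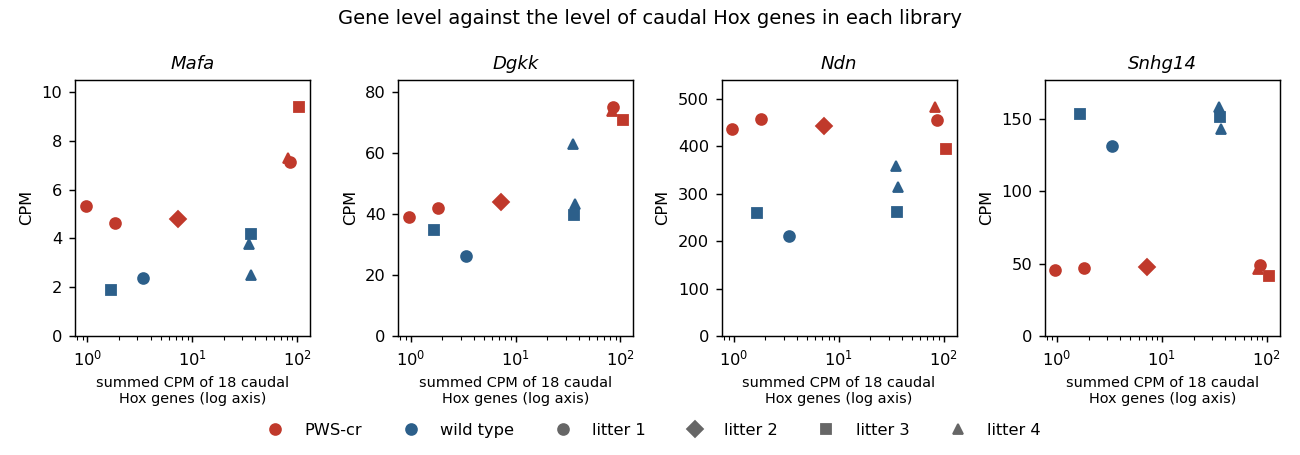
CPM of *Mafa*, *Dgkk*, *Ndn* and *Snhg14* against the summed CPM of 18 caudal *Hox* genes (log axis) in each of the 11 libraries, with PWS-cr in red, wild type in blue and a marker shape per litter. *Mafa* and *Dgkk* are highest in the 3 PWS-cr libraries with 82.3 CPM or more of these *Hox* genes, where there is no wild-type library, while the genotypes do not overlap in *Ndn* and *Snhg14*.

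Caudal *Hox* genes, which pattern the hindbrain and spinal cord, were the list with the largest median difference and with the least agreement between libraries. All 18 were tested, 13 had a positive value, the median log2 fold change was 1.88, and 0 were called by edgeR, while without the filter on low counts edgeR called *Hoxb7* (adjusted p = 0.00204) and *Hoxb8* (adjusted p = 0.0181). With the filter, 5 had an unadjusted p under 0.05 with a higher and 3 with a lower value. Over all genes tested, edgeR called 0.0135% and 2.07% had such a p in either direction. *Hoxb7* had the largest value, 3.48 (SE 0.82, adjusted p = 1), with 0 to 84 counts in PWS-cr and 0 to 15 in wild type. *Hoxb8* had 3.24 (SE 0.96), and *Hoxc8* and *Hoxc9* had −1.20 (SE 0.33) and −1.39 (SE 0.40) at 0.196 and 0.160 CPM in PWS-cr and 0.269 and 0.288 CPM in wild type. The median of the list was 0.84 without the litter term alone and −2.30 without that term and 1_5_Cr, 3_5_Cr and 4_3_Cr.

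The 12 genes of smallest p in each direction were taken from the remaining genes, among those with the same sign in litters 1, 3 and 4. With the filter on low counts, edgeR and DESeq2 called none of the 24, so they are given as values. Without the filter, edgeR called *Hoxb7* (adjusted p = 0.00204) and *Dgkk* (adjusted p = 0.00257). Of the 24, 18 had a mean under 1 CPM in both genotypes. With every library left out in turn, 24 kept their sign where they were tested, and 5 had CPM ranges that did not overlap. Over all genes tested such ranges were seen for 0.0812% with PWS-cr higher and 0.0902% with PWS-cr lower. The 24 were picked by small p and common sign in these same libraries, so these counts give no separate support. Without 1_5_Cr, 3_5_Cr and 4_3_Cr and the litter term, 2 of the 24 took the other sign (*Dmrt1* 0.08 and *Hoxc8* 0.17) and 2 were not tested (*Hoxb7* and *Gm44626*). Without the litter term alone, *Dmrt1* had −0.33 and *Hoxc8* −0.44. The same sign in the 3 litters was seen for 5524 of all genes tested (24.9%).

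Among the 12 with lower values, *Tmem231* and *Zfand2a* were the best measured. *Tmem231*, which encodes a protein of the ciliary transition zone, had 14.6 to 15.3 CPM (median 14.9) in PWS-cr, against 17.9 in 1_3_Cr, 18.6 in 3_1_Cr, 16.6 in 3_6_Cr, 17.3 in 4_1_Cr and 18.7 in 4_2_Cr. Its log2 fold change was −0.26 (SE 0.06, adjusted p = 1, edgeR), with −0.26, −0.23 and −0.28 in the 3 litters, and −0.26 without 1_5_Cr, 3_5_Cr and 4_3_Cr. The narrow spread in PWS-cr set it apart from the wild-type values. *Zfand2a*, a gene of the proteotoxic stress response, had 44.4 to 46.4 CPM (median 45.6) in PWS-cr, against 51.9, 48.2, 54.3, 53.1 and 50.6 CPM in the wild-type libraries in the order above, and a log2 fold change of −0.18 (SE 0.05). *Slc13a1*, a sulfate transporter gene of the kidney, had 3 to 8 counts in PWS-cr and 9 to 15 in wild type. The rest included *Gm10421*, *2310016G11Rik*, *Dmrt1*, *Gm37364*, *A930027P06Rik*, *Dppa2*, *Gm19327* and *Hoxc8*, with log2 fold changes between −1.67 and −0.49.

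Among the 12 with higher values, *Dgkk* was the only gene above 10 CPM. *Dgkk*, which encodes a lipid kinase, had 39.2 CPM in 1_1_Cr, 42.1 in 1_2_Cr, 75.1 in 1_5_Cr, 43.9 in 2_2_Cr, 70.8 in 3_5_Cr and 74.0 in 4_3_Cr. Wild-type libraries had 26.3, 34.7, 39.8, 43.3 and 62.9 CPM in 1_3_Cr, 3_1_Cr, 3_6_Cr, 4_1_Cr and 4_2_Cr. The groups overlapped, and its highest values were in the libraries with the most caudal *Hox* RNA. The log2 fold change of *Dgkk* was 0.81 (SE 0.20) and 0.57 with the *Hox* level as a term. It was 0.48 without the litter term alone and 0.01 without that term and 1_5_Cr, 3_5_Cr and 4_3_Cr. *Gtf2a1l*, a general transcription factor gene of germ cells, had 12 to 18 counts in PWS-cr and 5 to 11 in wild type. The others were *Gm44731*, *Gm42466*, *Gm44560*, *Gm44830*, *Hoxb7*, *Cd226*, *Gm44626*, *Gm26577*, *Fstl3* and *Adh1*, with log2 fold changes between 0.44 and 3.48. *Dyrk3*, a kinase gene named by the study, had −0.11 (SE 0.10) and no common sign in the litters.

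**Figure D4:**
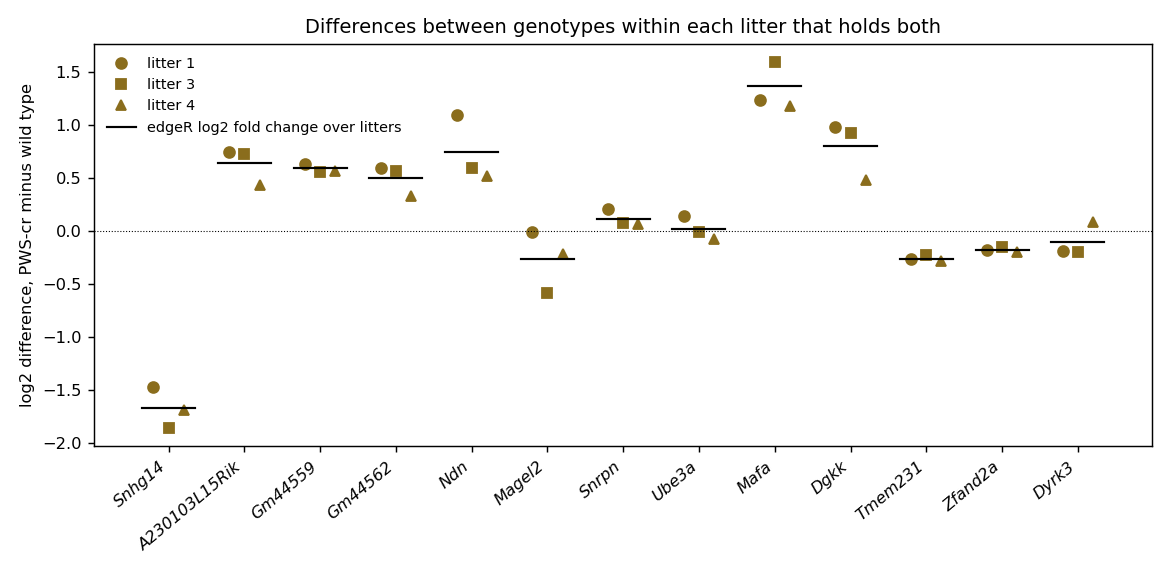
Log2 differences between the mean CPM of PWS-cr and wild-type pups within litters 1, 3 and 4 (symbols; pseudocount 0.1 CPM) and the edgeR log2 fold change over litters (bars) for 13 genes. *Snhg14* lies between −1.86 and −1.48 and *Tmem231* between −0.28 and −0.23, whereas *Ndn* runs from 0.52 to 1.09.

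Genes that act with C/D box small nucleolar RNAs had values near 0. Of 18 tested genes for proteins that bind or assemble these RNAs, 9 had a positive value, the median log2 fold change was −0.00, and the range was −0.04 to 0.11. *Nop56*, a core protein of the particle, had 0.04 (SE 0.04), and *Rbfox1*, a neuronal splicing factor, had 0.11 (SE 0.07). Of 27 tested host genes of other small nucleolar RNAs, 16 had a positive value with a median of 0.01, and the values lay between −0.09 and 0.24. None of these 45 genes was called by edgeR or DESeq2, and 0 had an unadjusted p under 0.05. Over all genes tested the shares were 0.0135% called by edgeR, 0.0316% called by DESeq2 and 2.07% at such a p. At this list size 0 is close to those shares.

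Imprinted genes elsewhere were close to 0 as well. Of 45 tested imprinted genes of other loci, 28 had a positive value with a median log2 fold change of 0.02. Of 9 in the *Dlk1*-*Dio3* cluster, 5 were positive with a median of 0.01. *Dio3*, which encodes the enzyme that inactivates thyroid hormone, had the largest value of that cluster by size, −0.57 (SE 0.26), at 1.98 ± 0.67 CPM in PWS-cr (SD, n = 6) and 2.59 ± 0.46 CPM in wild type (SD, n = 5). Neither list held a called gene, where edgeR called 0.0135% of all genes tested.

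Genes tied to growth, feeding and hormone processing had medians near 0. Of 15 tested prohormone processing genes 10 had a positive value with a median of 0.02 and a range of −0.06 to 0.11, including *Pcsk2*, a prohormone convertase, at 0.10 (SE 0.06). Of 22 tested hypothalamic neuropeptide genes 12 had a negative value with a median of −0.05. *Oxt*, which encodes oxytocin, had −1.10 (SE 0.53) at 0.144 CPM in PWS-cr and 0.297 CPM in wild type. *Pmch*, which encodes melanin-concentrating hormone, had −0.76 (SE 0.34) with a difference of −0.01 in litter 1 and −2.10 in litter 3. Of 18 tested genes of insulin-like growth factor and growth hormone signalling 10 were positive with a median of 0.01, and *Igf1* had 0.22 (SE 0.13). Serotonin receptors and the serotonin transporter had a median of 0.03 over 14 tested genes and the circadian clock one of −0.03 over 21. Of 19 tested MAGE family genes and necdin partners, a list that holds *Ndn*, 10 were positive with a median of 0.01. *Ndn* was the 1 member that DESeq2 called, against 0.0316% of all genes. Immediate early genes (20 tested) had a median of 0.05 and glucocorticoid responsive genes (13 tested) one of 0.02.

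Markers of the cell types of the brain and of tissue around it were compared in the same way. With the filter on low counts 0 genes of the 18 lists were called by edgeR or DESeq2. Over all genes tested, edgeR called 0.0135% and DESeq2 0.0316%. Without the filter, edgeR called *Hoxb7* and *Hoxb8* of the caudal *Hox* list. Of 15 tested markers of GABAergic neurons 15 had a negative value, with a median log2 fold change of −0.205. *Nkx2-1*, a regulator of ventral forebrain progenitors, had −0.47 (SE 0.16), and *Gad2*, a GABA-synthesis gene, had −0.08 (SE 0.06). The summed level of the list was 707 to 1020 CPM in PWS-cr and 872 to 1010 CPM in wild type, lowest in 1_5_Cr and 3_5_Cr. The median of the list was −0.0932 without the litter term alone and 0.113 without that term and 1_5_Cr, 3_5_Cr and 4_3_Cr. Glutamatergic markers had a median of −0.01 over 15 genes, and their summed levels were 2570 to 3260 CPM in PWS-cr and 2090 to 3240 CPM in wild type.

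Without the same 3 libraries and the litter term, the medians of the oligodendrocyte, astrocyte, microglial, endothelial, meningeal, choroid plexus and muscle lists took the other sign, and that of dividing cells did not. The choroid plexus median also did so without the litter term alone (0.0331). No PWS-cr pup of litters 3 and 4 is left without the 3 libraries, so a change of sign there cannot be told apart from litter. Of the 18 oligodendrocyte lineage markers 16 lay above 0 (median 0.20). The median was 0.07 without the litter term alone and −0.26 without that term and those 3 libraries. Muscle and cartilage markers had a median of 0.82 over 13 genes, with summed levels of 74.9 to 149 CPM in PWS-cr and 72.6 to 122 CPM in wild type, highest in 3_5_Cr and 4_2_Cr. Without 3_5_Cr alone their median was −0.462. Leaving out 3_5_Cr alone also took the meningeal median to −0.0514, the microglial median to −0.0414 and the endothelial median to −0.0395. Of the 14 dividing cell markers 14 lay below 0, with a median of −0.08 and summed levels of 233 to 350 CPM in PWS-cr and 245 to 375 CPM in wild type, and a median of 0.01 without 1_3_Cr. Their part in the results was not tested. Microglial markers had a median of 0.06 over 13 genes, endothelial and pericyte markers 0.06 over 15, astrocyte and radial glia markers 0.06 over 16 and choroid plexus markers −0.13 over 15. Meningeal and fibroblast markers had a median of 0.18 over 16 genes and monoaminergic markers 0.09 over 16. The monoaminergic median was −0.0563 with the caudal *Hox* level as a term, and it was also negative without the 3 libraries and the litter term. Cholinergic and motor neuron markers had 0.295 over 9 (0.14 without the litter term alone, −0.519 without that term and the 3 libraries). Red blood cell markers had a median of 0.09 over 9 genes, cerebellar markers −0.05 over 14, olfactory markers 0.03 over 13, pituitary markers −0.04 over 6 and eye markers −0.09 over 7. Of 8 tested mitochondrially encoded genes 8 lay above 0, with a median of 0.05.

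**Figure D5:**
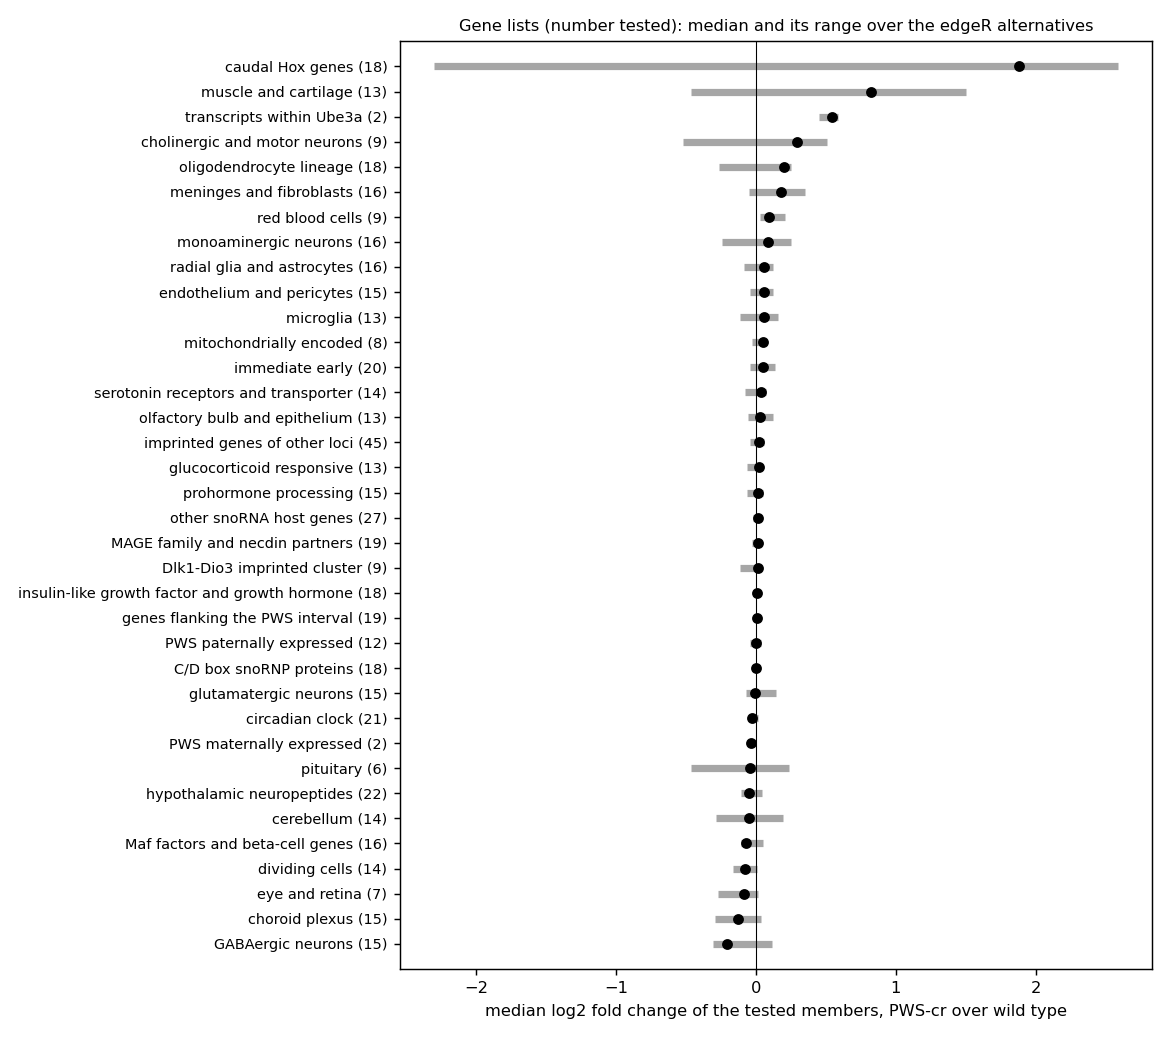
Median log2 fold change of PWS-cr over wild type for the tested members of 36 gene lists (points, number tested in brackets), with the lowest to highest median over the edgeR alternatives (grey bars). Most medians lie within 0.10 of 0, and the bars of the caudal *Hox*, muscle and motor neuron lists cross 0 by the widest margin.

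The genotype difference was also compared between the sexes, with a sex by genotype term in the model. EdgeR called 0 of 22172 genes, the smallest adjusted p was 0.128, and 648 genes had an unadjusted p under 0.05. *Snhg14*, *Ndn* and *Mafa* had unadjusted p-values of 0.162, 0.315 and 0.399 for this term in edgeR. With 2 to 3 pups per sex and genotype the term is measured loosely, and a missed threshold does not show that the sexes were alike.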

How the data were processed

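Polyadenylated RNA from P0 whole brain was sequenced as paired, unstranded libraries. The authors used STAR (mm10) for alignment, featureCounts for gene-level counting and DESeq2 for testing; kallisto is also named in the submitters' processing notes, and versions are not given in the sources used here. The deposited raw read counts per gene were analysed here. The authors' normalised counts and mean levels (signal), FPKM and TPM values, which were deposited beside them, were not used. The log2 fold changes, the test statistics (score) and the p-values deposited by the authors hold their own comparisons and were neither used nor printed.

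A minimum of 10 counts in 4 or more libraries left 22172 of 55409 genes, which were fitted with edgeR 4.0.16 (R 4.3.3; TMM scaling, quasi-likelihood F test, litter and genotype as terms), with Benjamini-Hochberg adjustment over all genes tested and a threshold of 0.05. Standard errors and 95% intervals were derived from this fit. DESeq2 1.42.0 was an alternative, as were other scaling, filters and terms, each litter left out and each of 11 libraries left out in turn. The scripts were tested on simulated data.

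Genes were named by rule: genes called, genes the study named for these brains (picked on these samples, hence not independent evidence), the measured genes of the interval, the 12 of smallest p in each direction with the same sign in each litter, and up to 4 members of smallest p in each of 36 lists. Members and lists were chosen with earlier results of these data known. Positions come from GENCODE M21 (mm10) and the bounds of *Ipw* from RefSeq (GRCm38.p6). Of 12 labelled libraries of the set, 11 were analysed here. A few genes that the rule names are not reported here.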

Additional observations from a re-analysis of the deposited data

Results flagged for a closer look

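In 6 of 84 groups of libraries examined, 1 library lay far from the others of its genotype (Dixon's ratio above its 95% critical value), which chance gives in about 1 in 20 groups. In 4 of these the library was 2_2_Cr, the PWS-cr pup without a counted littermate. *Gm44831* was at 0.0188 CPM there (1 count) and at 0 in the other PWS-cr libraries. *Dmrt1*, a testis transcription factor gene, was at 0.886 CPM in 2_2_Cr against 0.168 to 0.374 CPM in the others. *Gm37364* was at 0.792 CPM against 0.186 to 0.329 CPM, and *A930027P06Rik* at 0.81 CPM against 0.533 CPM in the next highest. The genotype term draws on 2_2_Cr only through scaling, filtering and dispersion.

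In wild type, *Atp10a* was at 7.21 CPM in 3_1_Cr against 8.17 to 8.43 CPM in the others, and *A230057D06Rik* at 42.8 CPM in 3_6_Cr against 49.6 to 51.3 CPM.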

How the results depend on the processing

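*Snhg14* was called under 24 of 24 alternatives, with log2 fold changes of −1.78 to −1.58 when 1 library was left out. EdgeR called 3 genes (1 higher, 2 lower). DESeq2 called 7 on the same genes (5 higher) and 10 on all genes with a count (5 higher, 5 lower), and edgeR without a filter called 10 (8 higher), which added *Ndn*, *Mafa*, *Gm44559*, *Gm44562*, *Hoxb7*, *Hoxb8* and *Dgkk*. Without the litter term 2 were higher. None (0) were higher without 1_5_Cr, 3_5_Cr and 4_3_Cr or without litter 1. Without litter 3, 1 gene was called, with 0 higher and 1 lower, and without litter 4, 1 was lower. *Gm44831* was not tested in these last fits, nor with 10 counts required in every library, where 1 gene was lower. Leaving out 1 library gave 2 to 4 calls, 0 to 2 of them higher. *Ube3a* turned to −0.0156 without the litter term, −0.0279 without the 3 libraries and −0.0421 without litter 1, and ran from −0.0460 to 0.0620 over libraries left out. *Dyrk3* turned to 0.0264 without the 3 libraries. The causes were not tested, apart from filters that drop a gene. No paired analysis was possible because the libraries carry no pairing beyond litter, which the model already holds. Genes under 1 CPM and effects specific to 1 sex were measured loosely.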
